A study of Bos taurus with 6 samples.

Results

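The Rab family is the largest branch of the small GTPases that direct traffic between membranes inside the cell. Its members were taken as every gene in the deposited table whose symbol is RAB followed by a number and, at most, 1 letter from A to F. This gave 59 genes of 23475. Bovine preadipocytes were transfected for 48 h with either bta-miR-484 agomir or agomir NC, and 3 RNA libraries of each group were sequenced. The agomir NC libraries are also called controls here. An agomir is a modified double-stranded RNA that acts as a stand-in for the miRNA, and the agomir NC is the matching negative control. All cells came from subcutaneous fat of premature calves and grew in the same high-glucose medium with fetal bovine serum. No source states that a group's 3 samples are from separate calves, so p-values measure only the spread between these samples, which may be technical. The level of the miRNA itself was not analysed here.

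A Rab protein acts as a switch. Exchange factors (GEFs) load it with GTP, in which form it sits on a membrane and recruits effectors such as motors and tethers, and GTPase-activating proteins (GAPs) turn it off, after which GDI carries it through the cytosol. Different Rabs mark different compartments, and in fat cells they are known for moving vesicles with the insulin-regulated glucose transporter SLC2A4 (RAB10, RAB14) and for sitting on lipid droplets (RAB18).

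The labels call the cells adipocytes. Markers of mature fat cells were low in all 6 libraries. The 12 of them summed to between 16.3 and 18.6 FPKM per library, with LPL, a lipase, at 3.48 to 4.33 FPKM. ADIPOQ, the fat cell hormone adiponectin, stayed between 0.0763 and 0.197 FPKM, and SLC2A4 between 0 and 0.108 FPKM. In contrast, the 13 markers of fibroblast-like precursor cells, of which 12 had a row, summed to between 29057 and 30376 FPKM, led by the collagen gene COL3A1. PDGFRA, a receptor of adipocyte precursors, was at 162 to 172 FPKM. Of the 12, 10 averaged at least 0.5 FPKM and 2 did not. These 2 precursor markers were CD34, at 0.383 to 0.783 FPKM, and DLK1, listed at 0 in every library. The cells are therefore called preadipocytes, the name also used in the study's methods. FPKM corrects for how long a transcript is and how many fragments each library had, so levels may be set side by side between genes. In such bulk samples fewer cells of a type and less RNA per cell cannot be told apart.

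As a family the Rab genes were close to level between the groups. Their summed FPKM ran from 1276 to 1312 in the agomir libraries and from 1271 to 1319 in the agomir NC libraries, or 0.347% to 0.357% of all FPKM. Averaged over the 6 libraries, 44 of the 59 genes reached 0.5 FPKM, and these were tested with limma on log2(FPKM + 0.5), a scale that understates the change of low genes. Of the 44, 0 had an adjusted p under 0.05 in limma, against 0.00805% of the 12422 genes tested, and the lowest adjusted p was 0.202, for RAB8A. At an unadjusted p under 0.05, 4 of the 44 differed, or 9.09%, against 10.9% of all genes. RAB8A, RAB8B and RAB9A were the 3 higher with the agomir (6.63% of all genes were higher), and RAB3A was the 1 lower (4.31% of all genes were lower). The 3 libraries of one group all lay on one side of the other group in 7 of the 44, or 15.9%, against 17.2% of all genes. The same 3 genes lay above (10.9% of all genes), and RAB3A, RAB7A, RAB13 and RAB31 lay below (6.36% of all genes). These shares are near those of all genes.

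The median log2 fold change of the 44 was -0.0061, and that of all genes tested was 0.013. The median of the 44 moved to -0.021 under median-ratio scaling (-0.00071 over all genes), -0.020 under quantile normalization, -0.033 without agomir replicate 2 and -0.019 without agomir NC replicate 2, and turned to 0.012 without agomir replicate 1, 0.0040 without agomir replicate 3 and 0.0043 without agomir NC replicate 3. The median size over the 44 was 0.060, and 33 of the 44, or 75.0%, were under 0.1 in size, against 61.8% of all genes. With all 6 libraries, only RAB3A and RAB8A exceeded 0.2 in size. The count of lower genes moved with single libraries, to 2 without agomir replicate 2, where RAB5C was added, and to 3 without agomir NC replicate 1, where RAB4A and RAB5C were added. Over all genes, 450 of 12428 and 595 of 12403 were lower in these settings, against 535 of 12422 with all libraries. With 1 library fewer, groups separate more easily, and the number of Rab genes without overlap rose from 7 to 13 without agomir replicate 1 (29.5%, against 28.0% of all genes), to 14 without agomir replicate 2 (31.8% against 25.6%), to 10 without agomir replicate 3 (22.7% against 27.0%), to 11 without agomir NC replicate 1 (25.6% against 29.3%), to 8 without agomir NC replicate 2 (18.2% against 27.4%) and to 16 without agomir NC replicate 3 (36.4% against 26.4%).

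**Figure D1:**
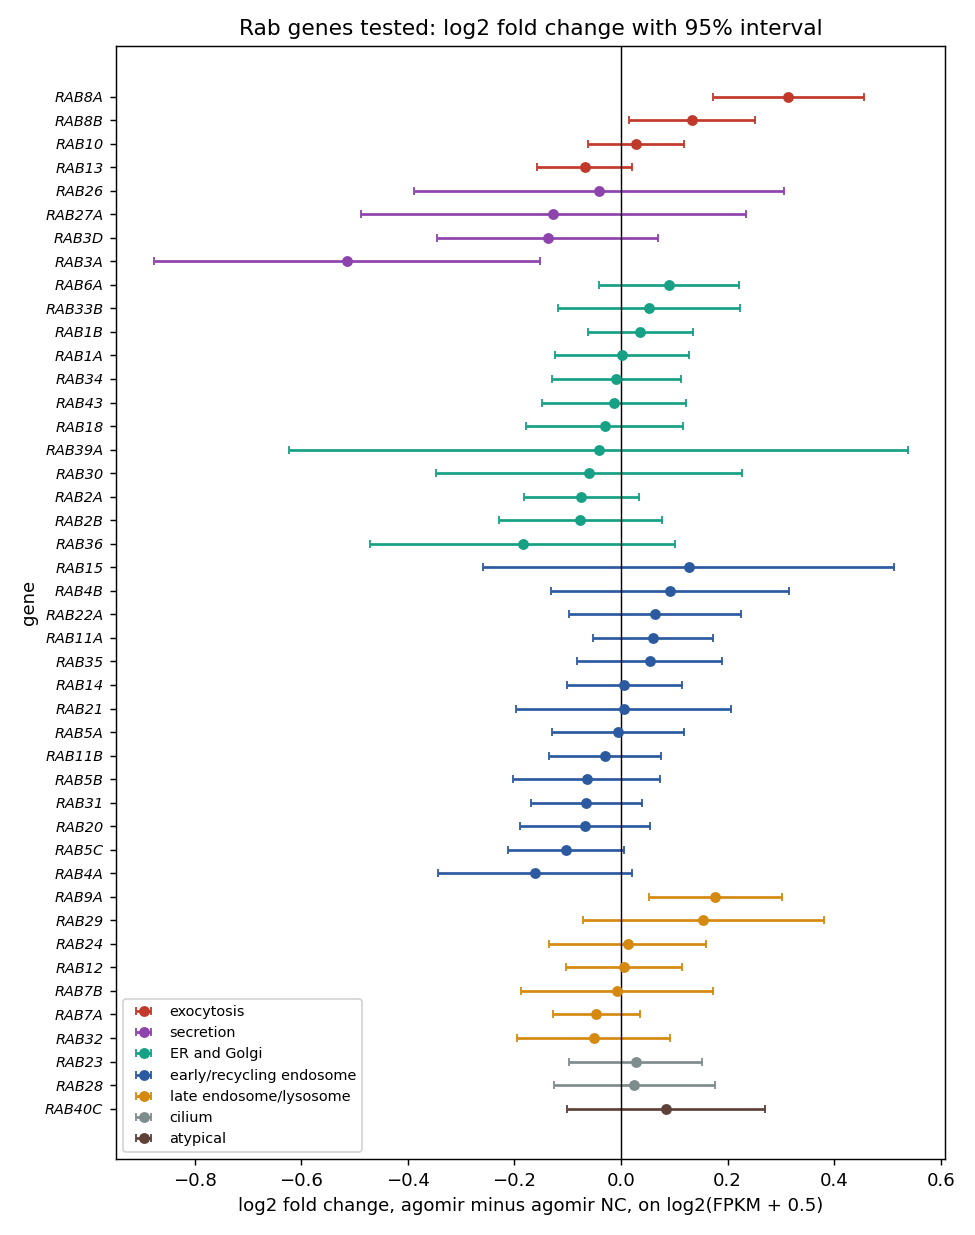
Log2 fold change of agomir over agomir NC on log2(FPKM + 0.5) for the 44 Rab genes tested (n = 3 libraries per group), grouped by the compartment each serves; points are limma estimates and bars their 95% intervals. The intervals of RAB8A, RAB8B and RAB9A lie above 0 and that of RAB3A lies below 0, before any adjustment for the number of genes tested.

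Rabs of transport to the cell surface form the first group, with 4 members, all tested. RAB8A carries vesicles from the Golgi to the plasma membrane and to the cilium. RAB8A was at 38.9, 41.9 and 38.1 FPKM after the agomir, against 34.2, 29.5 and 31.7 FPKM in the controls. The lowest agomir library was above the highest control. The means were 39.6 ± 1.99 FPKM and 31.8 ± 2.34 FPKM (SD, n = 3 each), or 24.6% higher with the agomir. Its log2 fold change was 0.31 (95% interval 0.17 to 0.46, adjusted p = 0.202 from limma), and it stayed between 0.26 and 0.37 over 15 other settings, with an adjusted p between 0.156 and 0.498.

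RAB8B, the close paralog of RAB8A, was at 32.3, 33.1 and 30.2 FPKM in the agomir group and 28.0, 29.5 and 29.6 FPKM in the NC group. Again the groups did not overlap, but the gap between the lowest agomir library and the highest control was narrower than the range within either group. The log2 fold change was 0.13 (95% interval 0.015 to 0.25, adjusted p = 0.407 from limma). It was no longer under an unadjusted p of 0.05 without agomir replicate 1 (0.12), without agomir replicate 2 (0.11) or without agomir NC replicate 1 (0.11). The same held without the variance trend and with libraries blocked by replicate number. Together the 2 paralogs summed to 71.2, 75.0 and 68.3 FPKM in agomir libraries compared with 62.2, 59.0 and 61.3 FPKM in control libraries. RAB8A made up 54.6%, 55.8% and 55.7% of that sum in the agomir libraries and 54.96%, 49.98% and 51.8% in the controls, so the shares overlapped. Reads that paralogs share may be split between them by the authors' program, and how far this touched the pair was not tested.

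**Figure D2:**
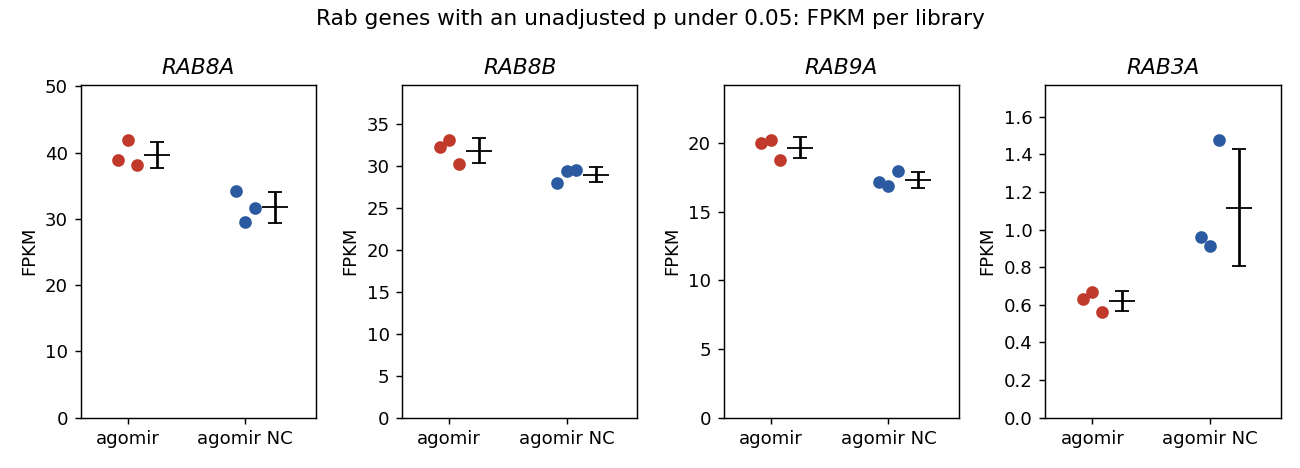
FPKM of RAB8A, RAB8B, RAB9A and RAB3A in each agomir (red) and agomir NC (blue) library, with the mean and SD of the 3 libraries of a group beside the points, each axis starting at 0. The 3 agomir libraries lie above the controls for the first 3 genes and below them for RAB3A, whose highest control library is at 1.47 FPKM.

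The remaining members of this group were RAB10, which brings SLC2A4 vesicles to the surface of fat cells, and RAB13, which serves tight junctions and surface delivery. RAB10 varied little, at 55.3, 56.0 and 55.7 FPKM after the agomir, against 53.7, 54.7 and 55.4 FPKM in the controls. The groups overlapped, and the 95% interval of its difference ran from -4.23% to 8.49%. RAB13 was the second most abundant Rab. Its level was 112.8, 108.8 and 108.6 FPKM in the agomir group and 113.3, 114 and 118 FPKM in the NC group. Every agomir library was below every control, by a log2 fold change of -0.068 that limma did not call (adjusted p = 0.575).

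Rabs of regulated secretion came next. Of the 8 members, 4 were tested, and all 4 log2 fold changes were negative, against 5582 of 12422 over all genes. Those of RAB26 and RAB27A turned positive when single libraries were left out. Without the filter, RAB37 (-0.027) and RAB27B (-0.18) were also negative, and RAB3B (0.027) and RAB3C (0.0058) were positive. Summed over the 8, FPKM was 11.9, 11.5 and 12.03 with the agomir and 13.2, 14.5 and 12.6 with the agomir NC. The sums did not overlap, and most of each sum was RAB3D.

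RAB3A binds synaptic and hormone-containing vesicles and helps to dock them before release. RAB3A was at 0.632, 0.668 and 0.560 FPKM in agomir libraries compared with 0.963, 0.913 and 1.47 FPKM in control libraries. All 3 agomir values were close together and below the controls, of which agomir NC replicate 3 stood highest. The means were 0.620 ± 0.0552 FPKM and 1.12 ± 0.311 FPKM (SD, n = 3 each). On the log2 scale the difference was -0.51 (95% interval -0.88 to -0.15, adjusted p = 0.334 from limma), and p was 0.1 by exact permutation, two-sided, the smallest that 20 labelings of 3 against 3 libraries allow. Without agomir NC replicate 3 it was -0.36, still at an unadjusted p under 0.05. Its size moved with the pseudocount, from -0.73 with 0.1 to -0.38 with 1. The study picked RAB3A from these libraries for real-time PCR, so its test here is no independent evidence. It reports that real-time PCR bore out its sequencing results, and its text gives no value for RAB3A alone.

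RAB3D, which serves secretory granules outside the nervous system, was the main member of the RAB3 subfamily. Its level was 6.96, 6.97 and 6.37 FPKM after the agomir, against 7.31, 8.53 and 6.72 FPKM in the controls, which overlapped (log2 fold change -0.14, adjusted p = 0.627 from limma). The difference shrank to -0.049 without agomir NC replicate 2 and grew to -0.21 without agomir NC replicate 3. RAB3B was below the filter at 0.0992 to 0.272 FPKM, and RAB3C was listed at 0 in all libraries but agomir replicate 1, at 0.0060 FPKM. The 4 genes summed to 7.87, 7.90 and 7.03 FPKM in the agomir group and 8.37, 9.72 and 8.41 FPKM in the NC group. RAB3A was 8.04%, 8.46% and 7.97% of the sum in the former and 11.5%, 9.39% and 17.5% in the latter, and neither the sums nor the shares overlapped.

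The primers by which the study measured RAB3A are shown because this gene has close paralogs and because they define the stretch of transcript that the PCR read. They are written 5′ to 3′ in lower case, as no part was singled out, and hold 9 G or C bases of 18 and 10 of 19. Whether they also match another RAB3 transcript was not tested.
RAB3A forward: tttcctcttccgctatgc
RAB3A reverse: ggactcctcgttggtaatg

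Since RAB3A is best known from neurons, neuronal markers are given beside it. Of 8 such markers, 7 had a mean under 0.5 FPKM, and RBFOX3 was listed at 0 in every library. SNAP25 and SYT1, which act with RAB3A in release at the synapse, were at 0 in every library except agomir replicate 2, at 0.0428 and 0.0228 FPKM. The 8 genes summed to 1.22, 1.55 and 1.49 FPKM in agomir libraries compared with 1.86, 1.52 and 1.5 FPKM in control libraries, which overlapped. The most abundant, SYN1, was at 0.946, 0.912 and 0.763 FPKM against 1.15, 1.04 and 1.09 FPKM. SYN1 thus lay lower in all agomir libraries, with an adjusted p of 0.580 from limma, and its part in the RAB3A result was not tested. Among glial markers SOX10 was listed at 0 in every library, and the 4 of them summed to between 3.10 and 4.94 FPKM, nearly all S100B. Endothelial markers summed to between 3.77 and 4.54 FPKM (6 genes, led by VWF, with EMCN at 0), immune markers to between 7.09 and 8.39 FPKM (6 genes, led by CD14), and muscle markers to between 0.216 and 0.623 FPKM (5 of 6 with a row, led by DES, with MYOD1 at 0). Of the 29 genes with a row in the endothelial, immune, muscle, neuronal and glial lists, only 6 were tested (VWF, TEK, CD68, CD14, SYN1 and S100B), with 0 for muscle and 1 or 2 for each other type, and limma gave 0 of the 6 an unadjusted p under 0.05 (10.9% of all genes), which with so few genes does not show that these cell types were level. SYN1 had one without the variance trend. Of the fat cell and precursor markers, FABP4 (log2 fold change -0.49) and DCN (-0.12) were lower and PPARG (0.23) was higher at that threshold, each with an adjusted p of at least 0.363 from limma. These calls ended for FABP4 without agomir replicate 3 (-0.38) or agomir NC replicate 1 (-0.35), for DCN without agomir replicate 1 (-0.11) or agomir replicate 3 (-0.12), without the filter, without the variance trend and with quantile normalization, and for PPARG without agomir replicate 1 (0.21), agomir replicate 3 (0.22) or agomir NC replicate 3 (0.17). The part of these markers in the Rab results was not tested.

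The other secretory Rabs were RAB27A, which tethers lysosome-related organelles and exosomes, and RAB26, a Rab of secretory granules. RAB27A was at 2.48, 1.62 and 2.89 FPKM after the agomir, against 2.62, 2.53 and 2.44 FPKM in the controls. Its log2 fold change of -0.13 rested on agomir replicate 2, and was 0.069 without it and -0.27 without agomir replicate 3. RAB26 was between 1.28 and 2.11 FPKM in all libraries, and the groups overlapped (log2 fold change -0.042, adjusted p = 0.951 from limma). It turned to 0.028 without agomir replicate 1 and 0.088 without agomir NC replicate 1, and was -0.11 without agomir replicate 3 and -0.19 without agomir NC replicate 3. RAB37 and RAB27B were below the filter. RAB37 reached 0.291 FPKM at most, and RAB27B was listed at 0 in agomir replicates 1 and 3 and in agomir NC replicate 1 and at 0.287 to 0.355 FPKM in the others.

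Rabs of the endoplasmic reticulum and Golgi were the largest part of the family by level, with 375 to 407 FPKM in each library. Of their 16 members, 12 were tested, and none was under an unadjusted p of 0.05 in limma (10.9% of all genes) or had groups without overlap (17.2% of all genes). With 1 library left out, up to 3 of the 12 had no overlap (without agomir replicate 2, against 25.6% of all genes). RAB1A, which carries cargo from the endoplasmic reticulum to the Golgi, was at 104, 112 and 107 FPKM in the agomir group and 111, 98.9 and 112 FPKM in the NC group. Both means were 107 to 108 FPKM, and its log2 fold change of 0.0020 changed sign with the scaling, to -0.013 under median-ratio scaling, and with the libraries, to -0.026 without agomir replicate 2 and -0.056 without agomir NC replicate 2. RAB2A, of the same route, was at 70.9, 68.8 and 74.1 FPKM against 72.5, 74.1 and 78.6 FPKM (log2 fold change -0.075, or -0.042 without agomir NC replicate 3). RAB18, found on lipid droplets and at the endoplasmic reticulum, was at 42.5, 43.4 and 42.9 FPKM in agomir libraries compared with 40.2, 43.2 and 48.6 FPKM in control libraries. The controls thus enclosed the agomir libraries, and the log2 fold change of -0.031 turned to 0.043 without agomir NC replicate 3 and was -0.093 without agomir NC replicate 1. RAB36, a low Golgi Rab, had the lowest log2 fold change of the group at -0.18 (adjusted p = 0.636 from limma), with means of 1.05 ± 0.121 FPKM after the agomir and 1.26 ± 0.118 FPKM in the controls (SD, n = 3 each). RAB6A, of traffic from and to the Golgi, had the highest (0.090), which was 0.036 without agomir NC replicate 2 and, at an unadjusted p under 0.05, 0.14 without agomir NC replicate 3. The other tested members were RAB1B, RAB2B, RAB30, RAB33B, RAB34, RAB39A and RAB43.

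Early and recycling endosomes had 16 members, 14 tested. None was under an unadjusted p of 0.05, against 10.9% of all genes. RAB5A directs the fusion of early endosomes, and was at 20.4, 22.6 and 20.9 FPKM after the agomir, against 21.3, 21.3 and 21.5 FPKM in the controls. The log2 fold change was -0.005, with a 95% interval of -8.53% to 8.57%, and 0.024 without agomir replicate 1 and 0.0094 without agomir replicate 3. RAB5C was the main RAB5 gene, at 55.7, 61.2 and 58.2 FPKM against 60.7, 64.4 and 63.1 FPKM. A single library, agomir replicate 2, overlapped the controls (log2 fold change -0.10, adjusted p = 0.477 from limma). RAB5C reached an unadjusted p under 0.05 under median-ratio scaling (-0.12), without agomir replicate 2 (-0.14) and without agomir NC replicate 1 (-0.13). The 3 RAB5 genes summed to 105 ± 4.93 FPKM after the agomir against 110 ± 3.07 FPKM in the controls (SD, n = 3 each), which overlapped.

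RAB4A, which returns receptors quickly to the surface, was at 6.41, 5.95 and 6.49 FPKM in the agomir group and 6.47, 7.55 and 7.27 FPKM in the NC group. The highest agomir library was just above the lowest control. Its log2 fold change was -0.16 (adjusted p = 0.511 from limma), and it reached an unadjusted p under 0.05 without agomir NC replicate 1, at -0.22, and with quantile normalization, at -0.19. RAB4B, its paralog, was at 11.5 ± 1.23 FPKM after the agomir and at 10.7 ± 1.29 FPKM in the controls (SD, n = 3 each), and the sum of both was 17.8 FPKM in either group. RAB11A, of slow recycling, was the most abundant of these genes at 69.7, 74.1 and 74.2 FPKM against 71.5, 65.8 and 71.9 FPKM. RAB14 was at 51.0 to 54.4 FPKM in agomir libraries compared with 51.0 to 54.6 FPKM in control libraries, almost the same range, and its log2 fold change of 0.0064 turned to -0.020 without agomir replicate 2, -0.010 without agomir NC replicate 1 and -0.0085 without agomir NC replicate 2. RAB35, which links recycling to the plasma membrane, was at 15.8 to 17.8 FPKM against 15.8 to 16.4 FPKM. RAB31, of traffic between the Golgi and endosomes, was at 27.1, 27.9 and 28.5 FPKM after the agomir, against 29.4, 29.0 and 29.0 FPKM in the controls. All agomir libraries were below all controls, at -4.45% between the means (log2 fold change -0.065, adjusted p = 0.644 from limma). RAB15 had the highest log2 fold change of the group (0.13) at a level of 0.684 to 1.18 FPKM, with overlapping groups. That value was 0.27 without agomir replicate 2, 0.021 without agomir replicate 3, 0.23 without agomir NC replicate 1 and 0.044 without agomir NC replicate 2. The other tested members, RAB5B, RAB11B, RAB20, RAB21 and RAB22A, had overlapping groups.

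Late endosomes, lysosome-related organelles and autophagy had 10 members, 7 tested. RAB7A, which brings late endosomes to lysosomes, was the most abundant Rab of all. Its level was 117, 118 and 116 FPKM in the agomir group and 120, 122 and 120 FPKM in the NC group. The 2 groups did not overlap, but the means differed by -3.17% (log2 fold change -0.046, 95% interval -0.13 to 0.036, adjusted p = 0.683 from limma), and the log2 fold change was -0.026 with quantile normalization. RAB9A, which returns mannose 6-phosphate receptors from late endosomes to the Golgi, was at 19.99, 20.2 and 18.8 FPKM in agomir libraries compared with 17.2, 16.8 and 18.0 FPKM in control libraries. Each agomir library was above each control. The means were 19.7 ± 0.754 FPKM and 17.3 ± 0.581 FPKM (SD, n = 3 each), 13.4% apart, and the log2 fold change was 0.18 (95% interval 0.052 to 0.30, adjusted p = 0.334 from limma). RAB29, which acts with the kinase LRRK2 at lysosomes and the Golgi, was at 4.47, 4.27 and 4.24 FPKM against 3.93, 3.33 and 4.32 FPKM. One control library lay within the agomir range, and the log2 fold change was 0.15, or 0.064 without agomir NC replicate 2. RAB7B, RAB12, RAB24 and RAB32 had overlapping groups.

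RAB23 and RAB28, the 2 Rabs of the cilium, were both tested. RAB28 was at 13.2, 15.0 and 15.1 FPKM after the agomir, against 13.7, 14.2 and 14.6 FPKM in the controls, and RAB23 was at 22.0 to 24.7 FPKM in all libraries. The log2 fold change of RAB23 was 0.028 and turned to -0.013 without agomir NC replicate 2. That of RAB28 was 0.025 and turned to -0.0038 without agomir replicate 2 and -0.0062 without agomir replicate 3. Of 3 large or atypical Rabs only RAB40C, which belongs to a ubiquitin ligase, was tested, at 6.58 ± 0.161 FPKM after the agomir against 6.20 ± 0.603 FPKM in the controls (SD, n = 3 each).

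**Figure D3:**
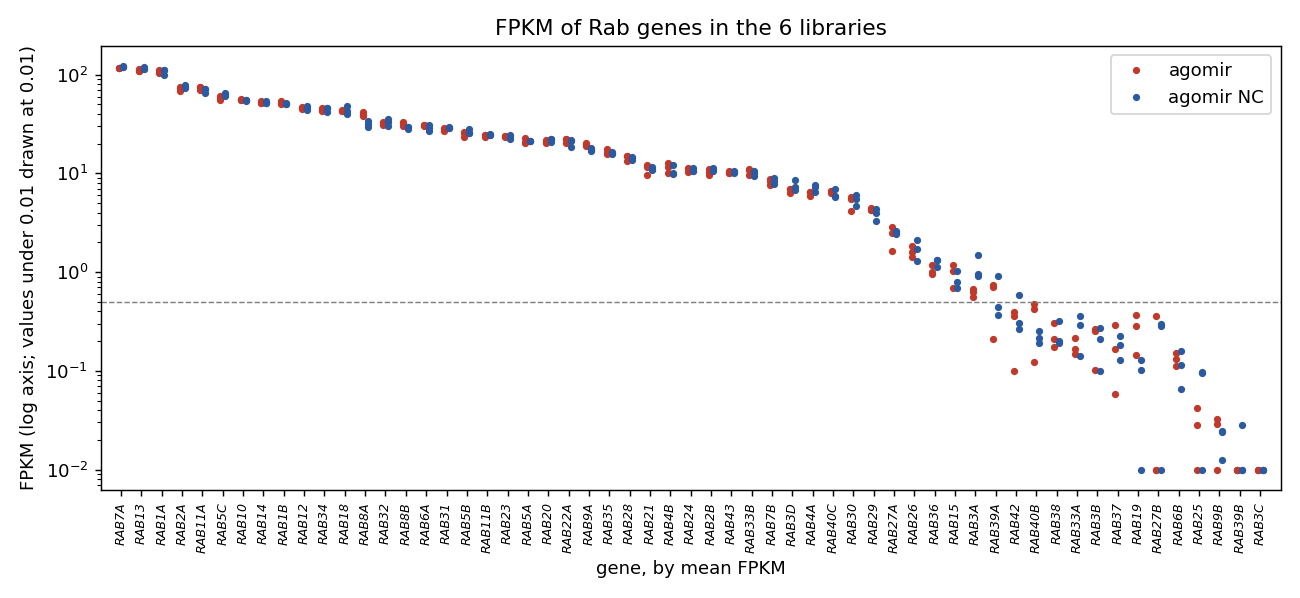
FPKM (log axis) of the 57 Rab genes with a value above 0, in order of their mean over the 6 libraries, with each agomir library in red and each agomir NC library in blue; the dashed line marks 0.5 FPKM. RAB7A leads at a mean of 119 FPKM, and the libraries of both groups lie close together above about 10 FPKM and spread below 1 FPKM.

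By level, the family fell off from 3 genes over 100 FPKM (RAB7A, RAB13 and RAB1A) through 6 between 50 and 100 FPKM, 23 between 10 and 50 FPKM, 9 between 1 and 10 FPKM and 3 between 0.5 and 1 FPKM. The top 5, with RAB2A and RAB11A, held 37.1% ± 0.340 of summed Rab FPKM with the agomir and 37.8% ± 0.328 with the agomir NC (SD, n = 3 each). In that order the ranges of RAB7A and RAB13 over the 6 libraries overlapped, and so did those of RAB13 and RAB1A and those of RAB2A and RAB11A. The median coefficient of variation within a group was 4.64% in the agomir libraries and 5.08% in the controls.

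Below the filter were 15 genes, none of them tested. RAB17 and RAB44 were listed at 0 in all 6 libraries, and RAB39B was at 0 in all but 1. RAB42 had the highest mean among the 15, at 0.337 FPKM. RAB19 was at 0.282, 0.370 and 0.145 FPKM in the agomir group and 0, 0.129 and 0.103 FPKM in the NC group. These groups did not overlap, and without the filter RAB19 had an unadjusted p under 0.05 (adjusted p = 0.509 from limma). RAB6B, RAB9B, RAB25, RAB33A, RAB38 and RAB40B were between 0 and 0.471 FPKM in every library.

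A list of 11 Rabs known for work in fat cells was also counted, namely RAB4A, RAB5A, RAB7A, RAB8A, RAB10, RAB11A, RAB13, RAB14, RAB18, RAB28 and RAB35. At an unadjusted p under 0.05, 1 of the 11, or 9.09%, was higher (RAB8A) and 0 were lower in limma, against 6.63% and 4.31% of all genes. Groups did not overlap in 3 of the 11 (RAB7A, RAB8A and RAB13), or 27.3%, against 17.2% of all genes. Without agomir replicate 1 this rose to 6, or 54.5%, against 28.0%. It was 4, or 36.4%, without agomir replicate 2 (25.6% of all genes) or agomir replicate 3 (27.0%). The same 36.4% was seen without agomir NC replicate 1 (29.3%) or agomir NC replicate 3 (26.4%), and under median-ratio scaling (17.0%). Without agomir NC replicate 2 it was 3, or 27.3%, against 27.4%. The median log2 fold change of the 11 was 0.0064, against 0.013 over all genes, and its sign was not stable. It turned to -0.0087 under median-ratio scaling, -0.0015 under quantile normalization, -0.020 without agomir replicate 2, -0.0080 without agomir NC replicate 1 and -0.0057 without agomir NC replicate 2, and rose to 0.024 without agomir replicate 1 and 0.038 without agomir NC replicate 3. RAB4A was added as lower under quantile normalization and without agomir NC replicate 1. The GAPs that hold back the Rabs of SLC2A4 vesicles were TBC1D4, at 13.4 ± 0.154 FPKM after the agomir against 13.1 ± 0.404 FPKM in the controls, and TBC1D1, at 8.62 ± 0.247 FPKM and 9.32 ± 0.299 FPKM (SD, n = 3 each). TBC1D1 lay lower in all agomir libraries (log2 fold change -0.11, adjusted p = 0.587 from limma).

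Rab regulators and effectors were counted from lists of 140 genes, of which 135 had a row and 118 were tested. Groups did not overlap in 19 of the 118, or 16.1%, against 17.2% of all genes. With limma 0 of the 118 had an adjusted p under 0.05. At an unadjusted p under 0.05, 6 were higher and 1 was lower, together 5.93% of the 118 against 10.9% of all genes. This split moved with the scaling, to 3 higher and 4 lower under median-ratio scaling and to 4 and 4 under quantile normalization. The split over all genes moved as well, from 824 higher and 535 lower of 12422. It was 673 and 688 of 12419 under median-ratio scaling and 696 and 629 of 12422 under quantile normalization. Of 8 genes for prenylation and GDI function, 0 passed that unadjusted threshold, and RABAC1, a Golgi receptor for prenylated Rabs, was at 334, 322 and 333 FPKM against 345, 340 and 358 FPKM, lower in all agomir libraries (adjusted p = 0.502 from limma). RABAC1 passed it under median-ratio scaling (-0.094) and without agomir NC replicate 2 (-0.094), and RABGGTB, which prenylates Rabs, without agomir replicate 1 (0.18). GDI2, which keeps Rabs soluble, was at 143 ± 1.25 FPKM and 144 ± 4.11 FPKM (SD, n = 3 each). Among 31 GEFs tested, the 2 that passed were SBF1 and DENND5A, which carry the DENN domain of many Rab exchange factors. SBF1 was at 19.8, 20.3 and 19.8 FPKM against 16.9, 19.1 and 17.0 FPKM, and DENND5A at 23.2, 23.7 and 22.5 FPKM against 21.9, 21.0 and 21.1 FPKM. The agomir libraries were above the controls in both. Of the GEFs of RAB8, RAB3IP was low, at 0.758 ± 0.0839 FPKM and 1.01 ± 0.244 FPKM, and RAB3IL1 was at 19.4 ± 0.436 FPKM and 19.9 ± 1.82 FPKM (SD, n = 3 each), and neither passed. MADD, the GEF of RAB3 and RAB27, was at 2.14 ± 0.102 FPKM and 1.99 ± 0.431 FPKM (SD, n = 3 each).

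Of the 37 GAPs tested, 2 were higher and 1 lower at an unadjusted p under 0.05, together 8.11% against 10.9% of all genes. RAB3GAP1, the catalytic subunit of the GAP for RAB3, was at 34.6, 36.0 and 33.3 FPKM in agomir libraries compared with 32.2, 31.2 and 32.5 FPKM in control libraries (log2 fold change 0.11, adjusted p = 0.440 from limma). Its partner RAB3GAP2 overlapped between the groups (-0.026, but 0.012 without agomir replicate 1 and 0.011 without agomir NC replicate 2). TBC1D2, a GAP for RAB7A, was lower, at 4.35, 4.54 and 4.19 FPKM against 5.22, 5.39 and 4.61 FPKM, and TBC1D13, named after its values were seen, was higher (0.19, but 0.11 without agomir NC replicate 1) with overlapping groups. Among 36 effectors, RABEP1, which joins RAB4 and RAB5 at early endosomes, was at 19.3, 20.8 and 21.2 FPKM against 19.0, 17.7 and 17.4 FPKM, and BICD1, which couples RAB6 to dynein, at 1.81, 2.35 and 2.15 FPKM against 1.73, 1.53 and 1.47 FPKM. Both lay above the controls in all agomir libraries, with log2 fold changes of 0.18 and 0.32 and adjusted p of 0.363 and 0.398 from limma. Of the 6 tested effectors of RAB3 and RAB27, 0 passed the unadjusted threshold in limma. SYTL2 was the highest of them at 66.8 to 74.9 FPKM, while RPH3A, the synaptic effector of RAB3A, was listed at 0 in every library. The count of 7 regulators and effectors fell to 4 without agomir replicate 2 (RABEP1 and SBF1 higher, MON1A and MICALL2, both new, lower). It was 4 without agomir NC replicate 2 (TBC1D13, RABEP1 and SBF1 higher, RABAC1, new, lower) and 1, TBC1D2, without agomir NC replicate 3. Over all genes, the first setting gave 556 higher and 450 lower of 12428, against 824 and 535 of 12422 with all libraries. The second gave 656 and 533 of 12421, and the third 736 and 383 of 12415. Over 15 other settings, the unadjusted p rose over 0.05 in 10 for DENND5A and TBC1D13, in 9 for RAB3GAP1, in 7 for TBC1D2, in 4 for BICD1 and in 2 for SBF1 and RABEP1.

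All 59 symbols had a match in RefSeq (ARS-UCD2.0 table), and the spans of 22 overlapped another annotated gene. RAB8A, RAB8B, RAB9A and RAB3A were not among the 22. Overlapping genes include RAB13, RAB1A, RAB5A, RAB10, RAB35 and RAB27A, and whether the counting used strand is not stated, so their levels are uncertain to that extent. The spans of SBF1, RAB3GAP1, RABEP1 and BICD1 also overlap other annotated genes. Levels of paralogs of high sequence likeness, such as RAB1A and RAB1B, RAB5A to RAB5C and RAB11A and RAB11B, are uncertain for another reason. Reads that they share may be split between them, and how far this touched them was not tested.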

How the data were processed

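For each gene, 1 FPKM value per library was deposited by the authors. The submitters' processing notes name fastp, HISAT2, StringTie and the build ARS-UCD1.2; no version was given for these. FPKM is scaled for transcript length and mapped fragments. Whole reads could not be recovered (among 3191 low genes, at most 12 ratios shared a 0.002-wide log2 bin), so depth and counting error are unknown. The 12422 of 23475 genes averaging 0.5 FPKM or more were compared as log2(FPKM + 0.5) with limma 3.58.1 in R 4.3.3 (variance trend, two-sided, Benjamini-Hochberg over all genes tested). The model was tested on simulated data. Single values were also compared by exact permutation. Between libraries of a group, log2 values correlated at 0.9928 to 0.9937 across genes, which are not independent replicates, and no library repeated another.

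Genes named were RAB3A and its paralogs, Rabs with an unadjusted p under 0.05, the 5 most abundant, the 5 largest increases and decreases, the 11 Rabs of fat cells, and regulators or effectors with an unadjusted p under 0.05 and no overlap; others were named after their values were seen. Members and lists (Rab roles, regulators, effectors, cell type markers) were chosen with earlier results of these data known. Alternatives were array weights, a replicate block, leaving out the variance trend or each library in turn, quantile or median-ratio normalization, a filter of 1 FPKM or none, and a pseudocount of 0.1 or 1. RefSeq (ARS-UCD2.0) gave symbols and neighbours only.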

Additional observations from a re-analysis of the deposited data

How the results depend on the processing

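RAB8A, RAB9A and RAB3A kept their direction and an unadjusted p under 0.05 in every setting in which they were tested; RAB3A was left out by a filter of 1 FPKM, where the count of lower Rab genes was 0. It was 2 under median-ratio scaling (RAB5C added), making 3 higher and 2 lower in place of 3 and 1, and 2 under quantile normalization (RAB4A added). Over all genes, median-ratio scaling gave 673 higher and 688 lower in place of 824 and 535, and quantile normalization gave 696 and 629. With 1 library left out, the lower count ranged from 1 to 3, the count of Rab genes without overlap from 8 to 16, the median log2 fold change of the Rab genes from -0.033 to 0.012 and the count of regulators and effectors from 1 to 6, where fewer samples enter. No Rab gene had an adjusted p under 0.05 in limma in any setting, and between 3 and 5 had an unadjusted p under 0.05. Genes near 0 in difference changed sign. RAB1A was at -0.013 under median-ratio scaling and -0.0011 with array weights, RAB14 at -0.0087 under median-ratio scaling and RAB28 at -0.0015 under quantile normalization. With 1 library left out, RAB1A ranged from -0.056 to 0.034, RAB14 from -0.020 to 0.038, RAB28 from -0.0062 to 0.085, RAB18 from -0.093 to 0.043, RAB5A from -0.049 to 0.024 and RAB27A from -0.27 to 0.069. The cause was not tested. The settings for RAB6A, RAB23, RAB26, RAB3GAP2 and the markers were read only after their values were seen. Over the genes followed, 352 of 418 values kept direction and side of the threshold, 49 lost it, 2 passed it and 15 changed sign. These values include RAB8A, RAB9A, RAB3A, RAB1A, RAB14, RAB28, RAB18, RAB5A and RAB27A. They leave out RAB5C and the genes read only afterwards. Regulator and effector settings were chosen after seeing the data. Deviations from the group mean correlated across genes at -0.051, 0.053 and 0.039 between libraries with the same number. No shared deviation was thus seen, but such values cannot show whether those libraries were prepared together. With the replicate block, 2 Rab genes were higher and 1 lower, without RAB8B, and 3 regulators or effectors (RABEP1, SBF1 and BICD1) passed in place of 7. Over all genes, the block gave 738 higher and 522 lower of 12422, in place of 824 and 535. Depth is unknown, which limits statements on genes near 0.5 FPKM such as RAB3A.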
